A study of Homo sapiens with 6 samples.

Results

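The genes described here are 10 members of the Hippo pathway and its output, measured by RNA sequencing in SK-MES-1, an established cell line labelled as lung squamous carcinoma. They are the targets ANKRD1, CTGF, CYR61 and CRIM1, the effectors YAP1, WWTR1 and TEAD1, and the regulators LATS2, AMOTL2 and WWC1. All 10 symbols were found among the 15761 genes of the table. The members were selected on their read counts in the same comparison that is described here, so their own differences between the groups are given as a description, and the calls of the test across all genes are only counted for them, with nothing read from these. Of the wild-type (WT) cultures, 3 were kept without exosomes and 3 were given complete medium with exosomes at 20 µg/ml, for 72 h. Exosomes are small vesicles that cells release, here by fibroblasts of lungs with idiopathic pulmonary fibrosis, a scarring disease. No group received vesicles of another source, and nothing in the labels tells whether replicates were independent cultures, so the p-values measure only the spread between these samples, which may be technical. In such bulk RNA, fewer cells of a type and less RNA per cell cannot be told apart.

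The Hippo pathway is a kinase cascade that limits the growth of tissues. The kinases MST1 and MST2 (genes STK4 and STK3) activate LATS1 and LATS2, which phosphorylate the co-activators YAP (gene YAP1) and TAZ (gene WWTR1) and keep them in the cytoplasm. When the cascade is quiet, YAP and TAZ enter the nucleus, bind the TEAD factors on DNA and raise the transcription of genes such as CTGF, CYR61 and ANKRD1. Several inhibitors of the pathway, among them LATS2 and AMOTL2, are themselves targets and form a feedback loop. YAP and TAZ are regulated largely through phosphorylation and location, which RNA levels do not measure.

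The TEAD factors bind the letters GGAATG, read as CATTCC on the other strand. RefSeq promoters (GRCh38.p14, 250 bases before to 50 after the start) were found for 7 of the 10 members. CYR61, CRIM1 and TEAD1 were not among them. The stretches below are those of ANKRD1 and CTGF, the members with a promoter that hold more than 1 such match. They are followed by the matches of YAP1 and AMOTL2, with each GGAATG or CATTCC in capitals and each sequence read 5′ to 3′ on the strand of its gene.
ANKRD1, chr10:90921292-90921317, minus strand: caccaccaaaGGAATGgccctctcac
ANKRD1, chr10:90921200-90921225, minus strand: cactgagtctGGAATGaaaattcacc
CTGF, chr6:131951374-131951622, minus strand: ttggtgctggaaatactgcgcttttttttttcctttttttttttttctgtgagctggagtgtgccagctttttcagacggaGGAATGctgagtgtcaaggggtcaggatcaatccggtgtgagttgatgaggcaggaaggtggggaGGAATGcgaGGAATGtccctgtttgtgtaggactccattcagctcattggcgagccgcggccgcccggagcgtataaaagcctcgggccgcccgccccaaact
YAP1, chr11:102110275-102110300, plus strand: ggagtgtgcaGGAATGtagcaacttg
AMOTL2, chr3:134374501-134374526, minus strand: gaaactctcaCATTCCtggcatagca

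Counted from the RefSeq start, the ANKRD1 matches began at -220 and -128, and the one at -128 lies in an exon of GENCODE 29. In CTGF the matches began at -169, -104 and -95, outside the gene's own GENCODE 29 exons. The CTGF stretch lies within the span of AL133346.1, an antisense gene on the opposite strand. The YAP1 match began at -162. The AMOTL2 match began at -69 of the downstream of its RefSeq starts, in a GENCODE 29 exon. The LATS2 match began at 9, after the start. WWTR1 and WWC1 had no match in these windows, which says only that the letters are absent there. Thus 5 members with a promoter held GGAATG, or 4 within the 250 bases before the start. A member counts here if any of its RefSeq promoters held the letters, whereas the shares that follow count single promoters. The 35116 RefSeq promoters compared include none on chromosome 8. Of these, 14.03% held at least 1 match, 1.37% at least 2 and 0.128% at least 3. The AP-1 letters TGANTCA, which overlap none of the members' matches, were found among the members only in ANKRD1 at -195, against 7.71% of the promoters compared. A match is a description of the sequence and does not show binding. ANKRD1 and CTGF were also the members with the lowest log2 fold changes. Among other known YAP-TAZ targets with a promoter, NUAK2 also held 2 GGAATG matches, with a log2 fold change of 0.17. TGFB2 (-1.39) held 1, and F3 (-1.04) and IGFBP3 (0.60) held 0. Whether the number of matches goes with the fold change was not tested.

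Libraries held 11346639 to 13334508 counts and 14294 to 14540 detected genes, so 1 CPM (the count scaled to the library total) stands for 11.3 to 13.3 reads. Control library 3 and exosome library 3 lay farthest from their groups (chi-square per gene 12.1 to 16.2 and 7.41 to 9.71, against 2.31 and 3.18 between the other libraries of a group). Of the markers of the labelled cell type, the epithelial keratins KRT8 and KRT18 stood at 2340 and 997 CPM in control. The basal keratins KRT5, KRT6A and KRT14 stayed below 1 CPM, at 0.130, 0.0556 and 0.0818 CPM in control, and KRT17 stood at 3.47 CPM, while the squamous transcription factors TP63 and SOX2 stood at 1.51 and 4.34 CPM. The 11 squamous or epithelial markers found (of 13) summed to 3292 to 3554 CPM in control and 2774 to 2944 CPM with exosomes, and 4 of the 7 tested fell in edgeR's test: KRT8 (log2 fold change -0.35), KRT18 (-0.39), KRT17 (-1.71) and CDH1 (-1.39). The 7 fibroblast markers found (of 11 listed) summed to 21.7 to 22.7 CPM in control and 17.2 to 17.9 CPM with exosomes. This sum was mostly FBLN1, PDGFRB and COL6A3 (10.8, 7.65 and 3.31 CPM in control), while PDGFRA was at 0 in control. Of the 3 fibroblast markers tested, COL6A3 fell in edgeR's test (log2 fold change -1.30). The 5 leukocyte markers found (of 6) summed to 164 to 195 CPM in control and 256 to 277 CPM with exosomes, which was mostly CD68 and CD14, while PTPRC and CD3E were at 0.170 and 0.0258 CPM in control. The part of these in the members' values was not tested. Fold changes followed base composition: across the 12449 tested genes, which are not independent replicates, Spearman's rho with the GC content of the longest transcript was 0.62. Fold changes are therefore given also with the trend on GC content and transcript length removed in each library, and are then called corrected. The corrected fit called 5 of the 7 tested squamous or epithelial markers and 3 of the 3 tested fibroblast markers lower. Of all tested genes, edgeR's test called 26.1% lower in the plain fit and 17.3% in the corrected fit.

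All 4 target members were lower with exosomes. ANKRD1 was lowered the most, followed by CTGF, CYR61 and CRIM1. ANKRD1, a nuclear and sarcomeric ankyrin repeat protein, lies on chr10:90912096-90921276 (GRCh38, as are all gene positions here). It stood at 30.7, 33.9 and 30.7 CPM in control libraries 1 to 3 and at 4.86, 4.99 and 5.02 CPM in exosome libraries 1 to 3. Its groups were far apart, and the exosome libraries differed from each other by less than the control libraries did. The log2 fold change was -2.76 ± 0.13 (SE, edgeR; n = 3 libraries a group here and below), the lowest of all 12449 tested genes. The corrected value was -2.73 ± 0.12.

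CTGF, which encodes a secreted matricellular protein of the CCN family (current symbol CCN2), lies on chr6:131948176-131951373. Its level was 45.0, 45.3 and 42.2 CPM in control and 16.7, 16.9 and 15.6 CPM with exosomes, with no overlap. The log2 fold change was -1.51 ± 0.10 (corrected -1.70), rank 34 from the lowest among the tested genes. CYR61 (CCN1), a related matricellular protein on chr1:85580761-85583962, stood at 83.8, 74.6 and 78.6 CPM in control and 52.9, 46.0 and 35.7 CPM with exosomes. The groups did not overlap, but CYR61 was the member with the widest exosome libraries, with an SD of 0.28 on the log2(CPM + 1) scale against 0.083 in control. Its log2 fold change was -0.90 ± 0.11 (corrected -1.06). The ratio of CTGF to CYR61 in FPKM went from 0.525 to 0.595 in control libraries to 0.309 to 0.428 with exosomes.

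CRIM1 encodes a membrane protein that binds bone morphogenetic proteins. It stood at 450.0, 464.5 and 520.2 CPM in control and 292.5, 310.5 and 318.3 CPM with exosomes, with no overlap. Its log2 fold change was -0.72 ± 0.078 (corrected -0.58). CRIM1 lies on chr2:36355926-36551135, where it overlaps the coding gene FEZ2 on the opposite strand. Antisense genes overlap CTGF as well as YAP1, WWTR1, TEAD1 and LATS2 in GENCODE 29. Whether the counting used strand is not stated, so reads of such partners cannot be told apart.

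**Figure D1:**
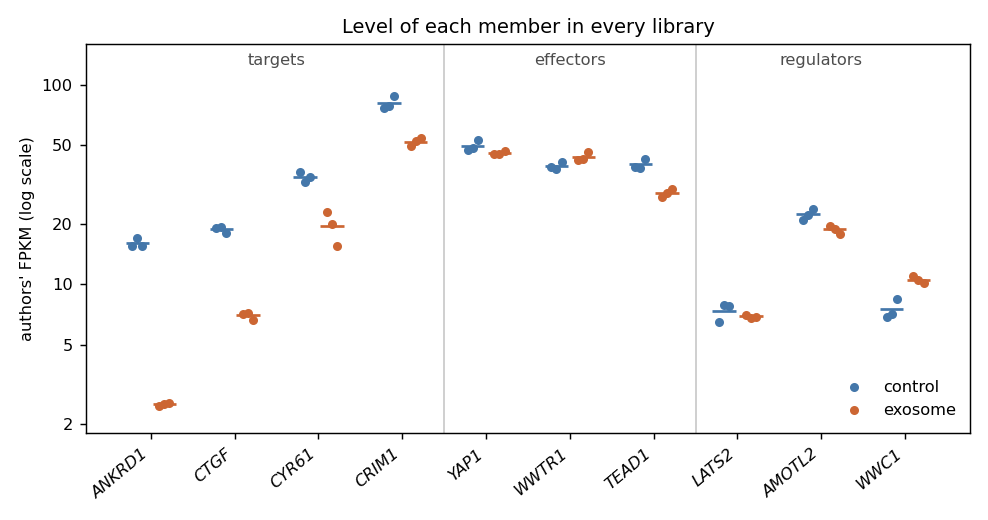
Authors' FPKM (log scale) of each member in the 3 control and 3 exosome libraries, with points for libraries and lines for group means, ordered as targets, effectors and regulators. ANKRD1 moved from a mean of 16.1 to 2.50 FPKM, whereas YAP1, WWTR1 and LATS2 stayed close to their control levels.

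The effectors moved less than the targets. YAP1, on chr11:102110461-102233423, stood at 266, 270 and 297 CPM in control and 254, 253 and 261 CPM with exosomes. The exosome libraries were lower without overlap, by a log2 fold change of -0.20 ± 0.074. That difference was not there with the GC and length trend removed (0.028 ± 0.055). The transcripts of its paralogue WWTR1 (TAZ), on chr3:149517235-149736714, stood at 208, 204 and 220 CPM in control and 225, 229 and 247 CPM with exosomes. In CPM, which is scaled by library totals only, the exosome libraries were the higher ones, without overlap. With edgeR's scaling the log2 fold change was 0.067 ± 0.076, less than its SE. The corrected value was 0.35 ± 0.055. YAP1 and WWTR1 thus stood in a different proportion: the ratio of WWTR1 to YAP1 in FPKM was 0.776 to 0.820 in control libraries and 0.929 to 0.991 in exosome libraries, a ratio that needs no scaling between libraries. As processed pseudogenes of YAP1 are annotated on chromosomes 6 and X, its counts are uncertain to that extent.

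TEAD1, the DNA-binding partner, lies on chr11:12674591-12944483. It stood at 360, 354 and 395 CPM in control and 253, 266 and 279 CPM with exosomes, with no overlap. Its log2 fold change of -0.56 ± 0.077 was reduced to -0.19 ± 0.055 by the correction. TEAD1 is among the AT-rich and long transcripts, with a GC content of 41.3% and a longest transcript of 8477 bases. The tested genes were put in 10 bins of GC content, and the median log2 fold change in the bin of TEAD1 was -0.22.

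Among the regulators, LATS2 and AMOTL2 were at or below control and WWC1 was above it. LATS2, the kinase that phosphorylates YAP and TAZ, lies on chr13:20973032-21061547. It stood at 35.6, 43.5 and 42.9 CPM in control and 38.7, 37.6 and 38.0 CPM with exosomes, so that the groups overlapped. Its log2 fold change was -0.18 ± 0.099 (corrected -0.18). AMOTL2, an angiomotin that binds YAP at cell junctions, lies on chr3:134355874-134375479. It stood at 100.1, 107 and 114 CPM in control and 93.6, 91.0 and 85.6 CPM with exosomes, lower in all exosome libraries by a log2 fold change of -0.33 ± 0.079. The corrected value was lower still (-0.53 ± 0.0645). AMOTL2 has a GC content of 56.7%, in a bin with a median log2 fold change of 0.30.

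WWC1 encodes KIBRA, a scaffold that brings LATS kinases to their activators, and lies on chr5:168291651-168472303. It stood at 49.4, 51.0 and 60.4 CPM in control and 79.2, 75.2 and 72.3 CPM with exosomes. All exosome libraries were higher, by a log2 fold change of 0.41 ± 0.090 (corrected 0.38). WWC1 and WWTR1 had log2 fold changes above 0 in both fits, opposite to the targets.

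**Figure D2:**
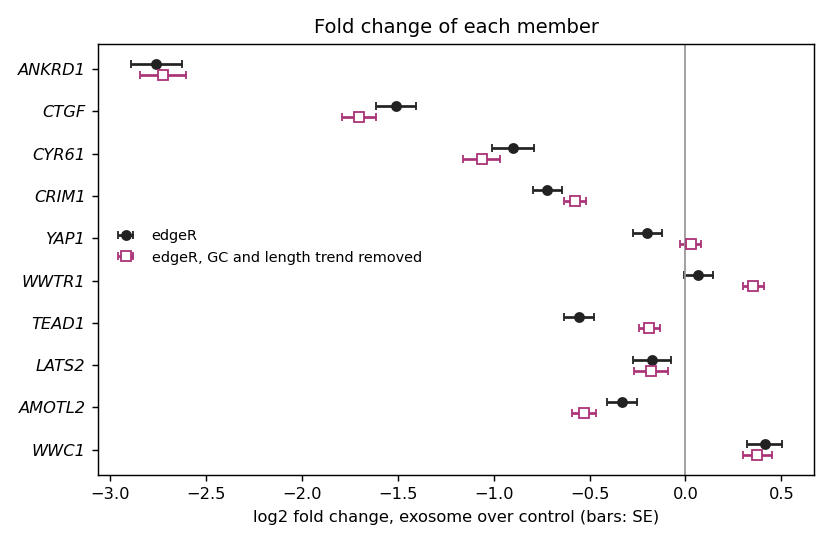
Log2 fold change of exosome over control for each member (points, with bars for the SE) from edgeR, with filled circles for the plain fit and open squares for the fit with the GC and length trend removed. ANKRD1, CTGF, CYR61 and CRIM1 lie left of 0 in both, while YAP1 moves from -0.20 to 0.028 and WWTR1 from 0.067 to 0.35.

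Of the 10 members, 7 were called lower and 1 higher at an adjusted p under 0.05 in edgeR's quasi-likelihood test, where 26.1% of all tested genes were lower and 25.6% higher. With the trend removed, 6 were lower and 2 higher, where 17.3% and 18% of the tested genes were. In 9 members the CPM ranges of the groups did not overlap (7 lower, 2 higher), as in 59.5% of the tested genes (3045 lower, 4362 higher). These counts carry no weight of their own, since the members were chosen on this contrast. The median log2 fold change was -0.44 over the members and -0.0042 over all tested genes (corrected -0.36 and -0.0040). In the authors' deposited table the log2 fold changes of the members ran from -2.76 for ANKRD1 to 0.42 for WWC1.

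**Figure D3:**
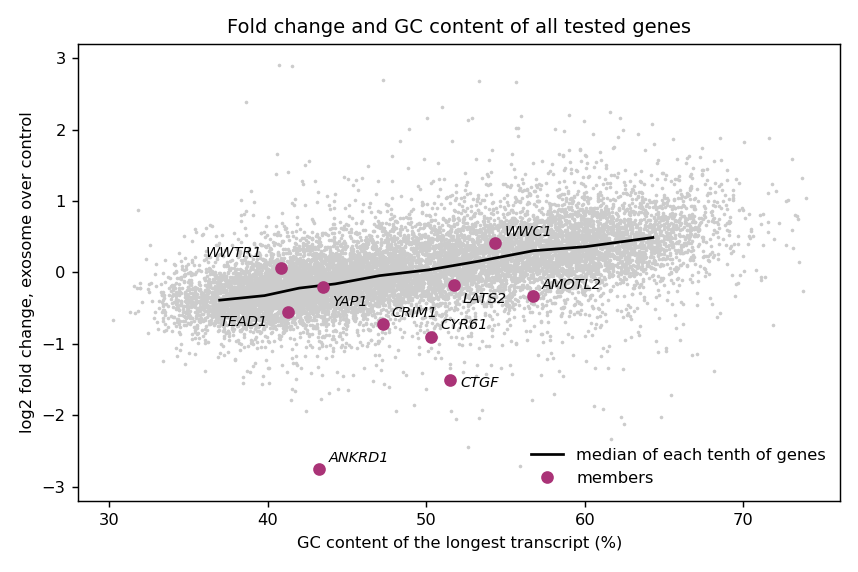
Log2 fold change of exosome over control against the GC content of the longest transcript for the tested genes (grey, with 2 genes beyond the axis of 3.2), the median of each of 10 GC bins (line) and the members (purple). The line goes from -0.39 to 0.49, and ANKRD1, CTGF, CYR61 and CRIM1 lie well below it, while YAP1 lies close to it.

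Per length of transcript, CRIM1 was the most abundant member in control at 80.9 ± 6.26 FPKM (mean ± SD), followed by YAP1 at 49.3 ± 2.96. TEAD1 at 39.9 ± 2.41 and WWTR1 at 39.3 ± 1.5 FPKM came next and did not differ beyond their spread. CYR61 (34.5 ± 2.02), AMOTL2 (22.4 ± 1.47), CTGF (18.9 ± 0.735) and ANKRD1 (16.1 ± 0.935 FPKM) each lay apart from their neighbours. WWC1 at 7.50 ± 0.835 and LATS2 at 7.38 ± 0.798 FPKM overlapped at the bottom of the order. With exosomes ANKRD1 became the least abundant at 2.50 ± 0.0434 FPKM, and WWC1 at 10.6 ± 0.486 FPKM passed CTGF at 7.01 ± 0.296. WWTR1 (43.5 ± 2.21) and YAP1 (45.5 ± 0.851 FPKM) then overlapped, both above TEAD1 at 28.7 ± 1.41.

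TEAD2 and TEAD4 rose where TEAD1 was lower. TEAD4 rose from 15.96, 11.5 and 13.2 to 25.1, 26.2 and 20.9 CPM (log2 fold change 0.74 ± 0.14, edgeR adjusted p = 0.000114). TEAD2 rose from 29.2, 24.4 and 18.0 to 32.0, 36.7 and 33.6 CPM (0.43 ± 0.14, edgeR adjusted p = 0.0161), a call lost when control library 3 or exosome library 2 or 3 was left out (adjusted p = 0.0579 to 0.0613). TEAD3 went from a mean of 17.6 to 22.4 CPM and did not pass (0.26 ± 0.12, edgeR adjusted p = 0.0820). It did pass edgeR's test without control library 1 or exosome library 3 (adjusted p = 0.0465 and 0.0287). The same held without library 3 of both groups (adjusted p = 0.0185) and with scaling by library totals only (adjusted p = 0.0265). With the trend removed, none of TEAD2, TEAD3 and TEAD4 passed edgeR's test (log2 fold changes 0.045, -0.11 and 0.25, adjusted p = 0.808, 0.451 and 0.104). VGLL4, a cofactor that competes with YAP for TEAD, rose from 26.9 ± 0.646 to 39.2 ± 4.66 CPM (log2 fold change 0.46, edgeR adjusted p = 0.000918, corrected 0.33).

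The summed FPKM of the 4 TEAD genes was 62.1 ± 3.00 in control and 62.1 ± 2.20 with exosomes. Within that sum, TEAD1 made up 59.9% to 68.4% in control libraries and 44.4% to 49.7% in exosome libraries. The shares did not overlap. They rest partly on TEAD1, which was chosen on this contrast, and on transcripts at the opposite ends of the GC range (41.3% for TEAD1, 58.4% to 60.4% for the other 3), so this shift and the GC trend cannot be told apart.

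**Figure D4:**
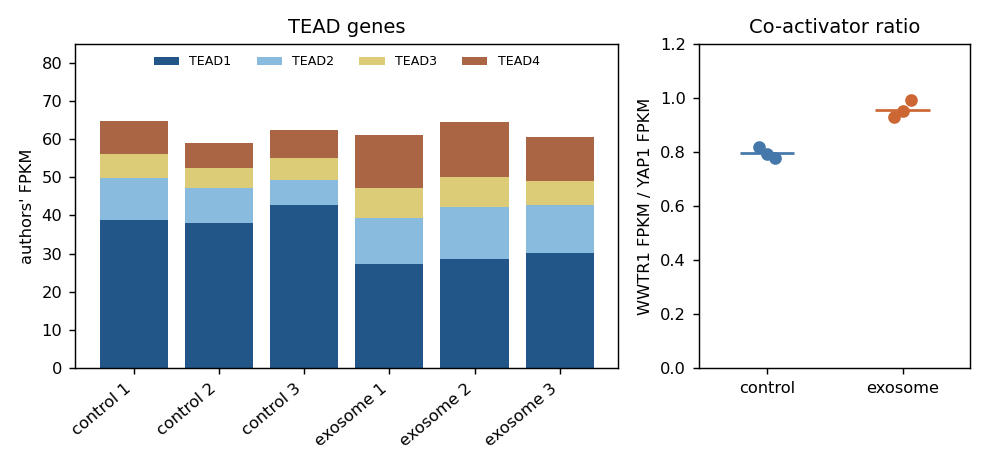
Left, the authors' FPKM of TEAD1 to TEAD4 stacked for each library. Right, the ratio of WWTR1 to YAP1 FPKM for each library (points) with the group mean (line). The stacked total lies between 58.9 and 64.9 FPKM in all libraries while the TEAD1 part is smaller with exosomes, and the mean ratio is 0.797 in control and 0.957 with exosomes.

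A list of other known YAP-TAZ targets held 16 genes, of which 15 were tested. With exosomes 9 fell and 2 rose, with a median log2 fold change of -0.36 (corrected 6 lower and 3 higher, median -0.20). Of all tested genes 26.1% fell and 25.6% rose (corrected 17.3% and 18%). TGFB2, a ligand of the TGF-beta receptors, fell from 157, 163 and 159 to 63.9, 60.1 and 68.7 CPM (-1.39 ± 0.081, edgeR adjusted p = 2.65e-11). F3, which encodes tissue factor, fell from 54.9, 62.3 and 53.2 to 30.6, 31.2 and 26.0 CPM (-1.04, edgeR adjusted p = 7.17e-08). The receptor tyrosine kinase AXL fell from 133, 122 and 150 to 84.9, 74.2 and 94.3 CPM (-0.76, edgeR adjusted p = 2.56e-06). DOCK5, an activator of the GTPase Rac, fell by 0.66 on the log2 scale (edgeR adjusted p = 3.25e-06). In each of these 4 genes the groups did not overlap, and the corrected fit also called them lower. The genes that rose were GADD45A, a stress and growth arrest gene (0.98 ± 0.12, edgeR adjusted p = 1.76e-06), and IGFBP3, which binds insulin-like growth factors (0.60 ± 0.086, edgeR adjusted p = 9.01e-06). Both kept that call with the correction (0.73 and 0.47).

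The kinase module upstream of YAP and TAZ had 19 tested genes of 20, of which 12 fell and 2 rose (median -0.29), where 26.1% of all tested genes fell and 25.6% rose. With the trend removed 3 were lower, NF2, WWC3 and FRMD6, and 2 higher, MINK1 and MAP4K4 (median -0.049), where 17.3% and 18% of all tested genes were, so these counts were near the background. The scaffold gene FRMD6 fell by 0.62 on the log2 scale (edgeR adjusted p = 1.02e-05, corrected -0.29). TAOK1 (-0.61), MOB1B (-0.66) and MAP4K3 (-0.45) fell in edgeR's test but not with the correction (adjusted p = 0.168, 0.120 and 0.0545). STK3, which encodes MST2, fell by 0.58 on the log2 scale (edgeR adjusted p = 0.00262), and this call too ended with the correction (-0.20, adjusted p = 0.254). Its partner STK4 did not pass either way (-0.15 and 0.10). LATS1, the paralogue of LATS2, fell by 0.29 on the log2 scale (edgeR adjusted p = 0.0271), but not after correction (0.099, adjusted p = 0.410) nor without control library 3 or exosome library 1 (adjusted p = 0.206 and 0.122). NF2, which encodes the membrane scaffold merlin, fell by 0.21 on the log2 scale (edgeR adjusted p = 0.0246, corrected -0.32), a call lost when library 1 or 2 of either group was left out (adjusted p = 0.0568 to 0.150). MINK1, a kinase of the MAP4K group, rose by 0.57 (edgeR adjusted p = 6.43e-06, corrected 0.31), and TAOK2 by 0.40 (corrected 0.090, adjusted p = 0.304).

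In edgeR's test 26.1% of all tested genes were lower and 25.6% higher. Regulators at cell junctions were lower in 7 of 12 tested genes and higher in 0 (median -0.34). In the plain fit all 12 log2 fold changes were below 0, so 0 were higher at an unadjusted p under 0.05. DESeq2 and limma-voom called 0 higher too. After correction LIMD1 and WTIP lay above 0 (0.080 each), and neither was called. With the correction 17.3% of all tested genes were lower, and 4 of the 12 junction genes stayed lower. These were the giant protocadherins FAT4 (-0.93 ± 0.092, edgeR adjusted p = 8.27e-08, corrected -0.49) and FAT1 (-0.65, corrected -0.26), the LIM protein AJUBA, which binds LATS kinases (-0.67, corrected -0.79), and the polarity scaffold PATJ (-0.62, corrected -0.33). AJUBA went from 207 to 138 CPM on average. Of these 4, AJUBA was the gene whose fall was larger after correction. In the STRIPAK phosphatase complex, which turns MST kinases off, 7 of 10 fell and 2 rose (median -0.33), against 1 lower and 2 higher with the trend removed. The corrected counts were near the background of 17.3% lower and 18% higher. STRN (-0.53), STRN3 (-0.46), CTTNBP2NL (-0.45) and MOB4 (-0.62) fell, of which MOB4 kept its call (corrected -0.29). STRN4 rose in both fits (0.70, corrected 0.29).

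**Figure D5:**
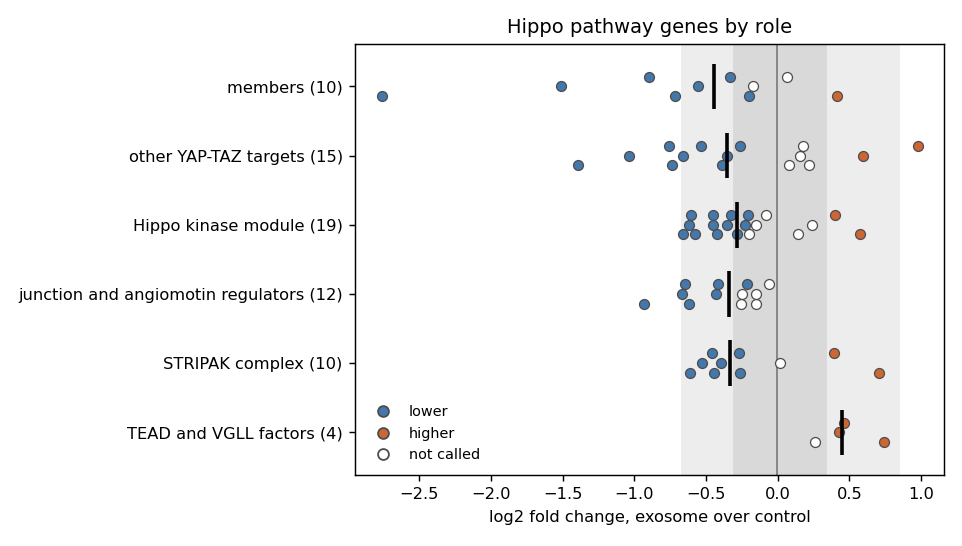
Log2 fold change of each tested gene by role (points coloured by edgeR's call at an adjusted p under 0.05, with black bars for list medians). Grey bands hold the middle 50% (-0.31 to 0.34) and 90% (-0.67 to 0.85) of all tested genes. Of the members, ANKRD1, CTGF, CYR61 and CRIM1 lie below the wider band, as do some other YAP-TAZ targets and junction genes.

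The tested relatives of CTGF, CYR61 and ANKRD1 did not all go one way. WISP2 (CCN5), a CCN protein that lacks the C-terminal domain of CTGF and CYR61, rose from 151 to 475 CPM on average (log2 fold change 1.57 ± 0.093, edgeR adjusted p = 7.56e-11, corrected 1.32). NOV (CCN3) fell from a mean of 11.1 to 8.54 CPM (-0.46, edgeR adjusted p = 0.0309), with groups that overlapped. That call was lost when control library 2 or 3, or exosome library 1 or 2, was left out (adjusted p = 0.0591 to 0.201). ANKRD23, a relative of ANKRD1, did not pass (0.053, edgeR adjusted p = 0.849), and WISP1, WISP3 and ANKRD2 were too low to be tested.

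Among the genes whose profile over the 6 libraries was most like that of ANKRD1, by Pearson's r of log2(CPM + 1) among 9403 genes with a mean of at least 10 CPM, were AKAP12, CDH1, CTGF and MT-ND4L (r = 0.999, 0.998, 0.998 and 0.997). These points share the 2 groups, so r reflects mainly the difference between them. CDH1, which encodes E-cadherin, stood at 51.5 CPM in control and 20.7 CPM with exosomes. Among the members other than CTGF, r ran from -0.936 for WWC1 and -0.821 for WWTR1 to 0.973 for CRIM1.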

How the data were processed

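Per the labels' protocols, RNA was taken up in Trizol and NEBNext Ultra libraries were built. The submitters' processing notes name STAR and GRCh38. For the counting program and strand, the sources used here give nothing. The deposited table holds, per the file headers, the authors' read counts per gene, a normalised signal (counts over 1 size factor per library), FPKM, and the authors' log2 fold changes and p-values. Tests used the counts, levels per length used FPKM, and the signal was used for none.

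The test was run in R 4.3.3 with edgeR 4.0.16 on the counts (filterByExpr, TMM, robust quasi-likelihood fit, group as the only term), with Benjamini-Hochberg adjustment over 12449 genes and a threshold of 0.05. Each SE was derived from the log2 fold change and its F statistic. GC content and length came from the longest GENCODE 29 transcript. For the corrected fit, each library's deviation from gene means in log2 CPM was smoothed on both (loess, span 0.3) and entered edgeR as an offset. Table positions start and end 1 base below GENCODE 29 for 15490 of 15490 genes with an ID and are printed counted from 1. CTGF and CYR61 were placed by symbol.

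Members and lists were chosen with earlier results of these data known. Named genes are the members, up to 4 genes per list and direction with the smallest adjusted p, TEAD2, TEAD3, TEAD4, LATS1, STK3, STK4, NF2, and the 5 genes most like ANKRD1. Some genes that this rule names are not reported here. WWC3, MAP4K4, WISP1, WISP3, ANKRD2 and ANKRD23 were named after their values were seen. FOXF2, SCRIB, VGLL1, VGLL2, VGLL3 and 7 of the markers were not analysed here. Same-numbered control and exosome libraries deviated together (r = 0.214, 0.232 and 0.355 across 9404 genes). So did control library 1 with exosome library 2 (r = 0.157) and control library 2 with exosome library 1 (r = 0.115). Library 3 of either group had r of -0.279 to -0.226 with the unlike numbers of the other. The values thus set library 3 apart more than they separate 1 from 2. The numbers were treated as pairing the samples in an alternative fit. That pairing comes from the data, not the labels. The main edgeR fit was tested on simulated counts without a GC or length trend, and the corrected and blocked fits were not. The planned protein comparison was not run.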

Additional observations from a re-analysis of the deposited data

How the results depend on the processing

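The fits were repeated with DESeq2 1.42.0, limma-voom 3.58.1, a filter of 1 CPM in 3 libraries, every gene with a count, scaling by library totals or RLE, a replicate block, the GC and length trend removed, and without each library. A fit without control and exosome library 3 together was chosen after seeing the data. All members except YAP1 kept the sign of their log2 fold change in all of these, as a description of members chosen on this contrast. WWTR1 ran from 0.013 to 0.35 and LATS2 from -0.25 to -0.094. YAP1 lost its call, which left 6 members lower, with library totals, without a filter and without each single library except exosome library 3. With the replicate block alone, 7 members were lower and 1 higher, and the kinase module had 13 lower and 3 higher. Of the genes that the rule names, none changed its call with that block, and MAP4K4 and WWC3 were not followed singly. Removing the trend gave 2 higher members, 3 lower kinase genes, 4 lower junction genes, 1 higher TEAD or VGLL gene, 1 lower STRIPAK gene and 2148 lower genes in all, against 3244. Blocked as well, it gave 2, 4, 4, 1 and 2 for the same lists. YAP1 turned to 0.028 (0.029 with the block) and LATS1 to 0.099 (0.10). Library totals gave 4 higher kinase genes. The CCN and ANKRD1 relatives had 0 lower genes with library totals and with DESeq2, 2 without a filter, and 0 to 1 without single libraries. The order of the members by level was the same in counts per kb in control. Low counts limit AMOT, DCHS1 and WISP1.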
